A study of Mus musculus with 6 samples.

Results

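The Slitrk family is a set of 6 genes, Slitrk1 to Slitrk6, which were followed across 6 RNA-seq libraries of neuron-enriched cells from mouse amygdala. The members were taken by symbol from the 35976 genes counted. Slitrk2 had one of the largest differences between the groups in these same libraries, and the family was chosen for that reason, so the values of all members in the comparison of sgEgfr with sgRosa are a description and carry no test. Of the 6 members, 5 passed the filter on low counts and Slitrk6 did not.

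SLITRK proteins are single-pass membrane proteins with leucine-rich repeats outside the cell, like those of the SLIT proteins, and a cytoplasmic tail that resembles that of the Trk neurotrophin receptors. They sit mainly on the postsynaptic side and bind receptor tyrosine phosphatases of the LAR type (Ptprs, Ptprd and Ptprf) on the presynaptic side, which helps a synapse to form. SLITRK3 is known for inhibitory synapses, through PTPRD, and SLITRK1, SLITRK2, SLITRK4 and SLITRK5 mainly for excitatory synapses. SLITRK6 is best known from the inner ear and the eye, and in the mouse brain from the thalamus.

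The libraries came from male C57BL/6J mice given an adeno-associated virus in the amygdala, which carried Cas9 under GfaABC1D, a promoter active in astrocytes, with a guide either against Egfr, the epidermal growth factor receptor gene (genotype label sgEgfrAstro, 3 sgEgfr libraries), or against the control locus Rosa (genotype label sgRosa26, 3 sgRosa libraries). After more than 2 weeks of expression, both groups went through 7 days of tube restraint, then fear conditioning on 1 day and extinction on another 3 days, so no unstressed mice were compared. The treatment text shared by all samples also names microglial guides, against Rosa or Areg, and does not say whether any of these mice received them. The cells targeted for editing were astrocytes, whereas the RNA, 5 ng for each library, came from cells enriched as neurons. The age of the mice and whether each library came from a separate animal were not given, so spreads and p-values refer to these libraries.

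Total counts were 2520426 to 4849404 in the sgEgfr libraries and 2348897 to 10152812 in the sgRosa libraries, and 3 counts in a library corresponded to between 0.270 and 1.25 CPM, the count scaled to library size by the TMM method. The targeted gene Egfr had 6, 18 and 6 counts in sgEgfr replicates 1, 2 and 3 and 1, 26 and 23 counts in sgRosa replicates 1, 2 and 3, with a log2 fold change of -0.65 (SE 1.03), which was 0.98 without sgRosa replicate 2. These counts come from cells enriched as neurons, in libraries that also held RNA of other cell types, and do not check the edit in astrocytes. A set of 16 pan-neuronal genes had a mean level of 7.55, 7.10 and 7.83 log2 CPM in the sgEgfr libraries and 6.59, 6.61 and 7.73 log2 CPM in the sgRosa libraries, so sgRosa replicate 3 lay among the sgEgfr libraries. In bulk libraries fewer neurons and less RNA per neuron cannot be told apart. Choroid plexus markers were high in 1 library of each group, at a mean log2 CPM of 7.08 in sgEgfr replicate 1 and 7.22 in sgRosa replicate 3, against 1.19 to 2.67 in the other 4 libraries.

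The members lie on 3 chromosomes of GRCm38, the assembly that mm10 names. Slitrk2 (66649318 to 66661393, plus strand) and Slitrk4 (64264885 to 64276996, minus strand) are on chromosome X, Slitrk1 (108908800 to 108914158), Slitrk6 (110748580 to 110755149) and Slitrk5 (111675097 to 111683141) are on chromosome 14, and Slitrk3 (73047265 to 73057803) is on chromosome 3. In every member the coding sequence lies in 1 exon, and no member's exons overlap those of another annotated gene. The members are diverged paralogs: Slitrk2 was identical to the others at 49.1% (Slitrk6) to 56.5% (Slitrk5) of aligned coding bases, and its longest exact stretch shared with another member's transcript was 18 bases, with Slitrk5. Over all 15 pairs the longest shared stretch was 22 bases, between Slitrk1 and Slitrk4. The most alike window of 60 coding bases is shown to make that divergence visible, since it bears on whether reads of one member could be counted for another. Lower case marks a base that is the same as in Slitrk2 and capitals mark a base that differs.
Slitrk2: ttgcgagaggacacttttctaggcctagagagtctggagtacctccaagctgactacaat
Slitrk1: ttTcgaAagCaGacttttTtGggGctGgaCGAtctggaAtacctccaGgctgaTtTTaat
Slitrk3: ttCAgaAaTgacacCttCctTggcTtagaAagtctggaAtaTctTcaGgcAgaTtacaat
Slitrk4: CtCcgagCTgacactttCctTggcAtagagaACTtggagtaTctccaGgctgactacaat
Slitrk5: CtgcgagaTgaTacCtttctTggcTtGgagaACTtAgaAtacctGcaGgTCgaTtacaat
Slitrk6: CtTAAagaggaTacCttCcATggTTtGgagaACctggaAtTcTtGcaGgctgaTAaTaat
Even in this window Slitrk4 differed from Slitrk2 at 12 of 60 bases, Slitrk3 at 15, Slitrk1 at 16, Slitrk5 at 17 and Slitrk6 at 22. The window covers coding bases 373 to 432 of Slitrk2, at chrX:66654277-66654336 on the plus strand.

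Slitrk2, the member whose loss or alteration in humans is linked to an X-linked intellectual disability, was higher in all 3 sgEgfr libraries than in any sgRosa library. It had 194, 188 and 235 counts in sgEgfr replicates 1, 2 and 3, or 41.4, 41.9 and 91.6 CPM. In sgRosa replicates 1, 2 and 3 it had 44, 20 and 93 counts, or 12.4, 8.35 and 8.37 CPM. The sgRosa libraries lay close together although their depth and neuronal level differed, and sgEgfr replicate 3 lay above the other sgEgfr libraries. The means were 58.3 ± 28.8 CPM in sgEgfr and 9.70 ± 2.32 CPM in sgRosa (SD, n = 3 each), and the log2 fold change was 2.58 (SE 0.39), or 5.99-fold. Of the 13159 genes tested, 2 had a larger log2 fold change. Slitrk2 was 1 of 5 tested members whose groups did not overlap with sgEgfr higher, and 5.8% of all tested genes had that pattern. That pattern was among the values that chose the family.

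**Figure D1:**
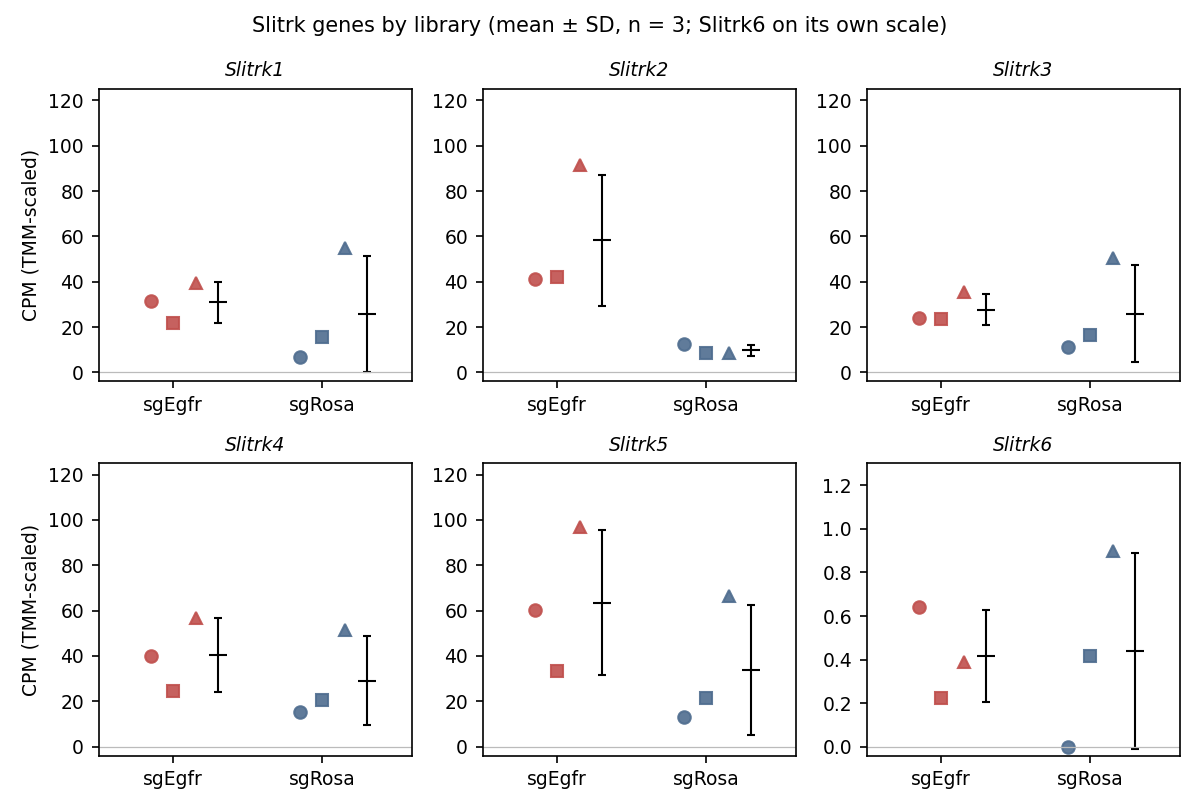
TMM-scaled CPM (y axis, linear) of each Slitrk gene in the 3 sgEgfr and 3 sgRosa libraries. Circles, squares and triangles are replicates 1, 2 and 3, horizontal marks and bars are the mean and SD of 3 libraries, and Slitrk6 has its own scale. Slitrk2 lies between 41.4 and 91.6 CPM in sgEgfr and between 8.35 and 12.4 CPM in sgRosa, and in the other panels sgRosa replicate 3 lies within or above the sgEgfr range.

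The other 4 tested members overlapped between the groups, and in each of them sgRosa replicate 3 stood apart from the other sgRosa libraries. Slitrk1, linked to Tourette syndrome in humans, had 148, 97 and 101 counts in the sgEgfr libraries (31.6, 21.6 and 39.4 CPM) and 24, 37 and 611 counts in the sgRosa libraries (6.75, 15.5 and 55.0 CPM). Slitrk3 had 112, 106 and 91 counts in sgEgfr (23.9, 23.7 and 35.5 CPM) and 39, 39 and 562 counts in sgRosa (11.0, 16.3 and 50.6 CPM). For both genes 2 sgRosa libraries lay below every sgEgfr library and the third lay above every sgEgfr library.

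Slitrk4 had 187, 109 and 146 counts in sgEgfr (39.9, 24.3 and 56.9 CPM) and 55, 49 and 572 counts in sgRosa (15.5, 20.5 and 51.5 CPM). Slitrk5, whose loss in mice gives excessive grooming, had 283, 149 and 249 counts in sgEgfr (60.4, 33.2 and 97.0 CPM) and 47, 51 and 740 counts in sgRosa (13.2, 21.3 and 66.6 CPM). In these 2 genes sgRosa replicate 3 lay within the sgEgfr range. The log2 fold changes were 0.21 (SE 0.67) for Slitrk1, 0.05 (SE 0.54) for Slitrk3, 0.44 (SE 0.50) for Slitrk4 and 0.88 (SE 0.63) for Slitrk5. All 5 tested members had positive log2 fold changes with TMM scaling, as had 46.2% of all tested genes and all 16 pan-neuronal genes. Slitrk3 had a negative one with library size scaling (-0.00045) and with scaling to the pan-neuronal genes (-0.20).

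Among single libraries left out, sgRosa replicate 3 shifted these 4 values the most. Without it the log2 fold changes were 1.50 for Slitrk1, 1.02 for Slitrk3, 1.16 for Slitrk4 and 1.89 for Slitrk5, whereas that of Slitrk2 was 2.45. Without sgRosa replicate 1 they were -0.20 for Slitrk1 and -0.29 for Slitrk3, and 0.16 for Slitrk4 and 0.53 for Slitrk5. Slitrk2 kept its sign and lay between 2.12 and 2.81 with each of the 6 libraries left out in turn.

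Slitrk6 was near the limit of detection. It had 3, 1 and 1 counts in the sgEgfr libraries and 0, 1 and 10 counts in the sgRosa libraries, at most 0.900 CPM, so no fold change is given. The limit that 0 counts allow in sgRosa replicate 1 is 0.844 CPM, which covers counting error only.

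Divided by union exon length, the members could be set in order of level. In sgEgfr the order was Slitrk5 (12.1 ± 6.08 CPM per kilobase), Slitrk2 (7.22 ± 3.57), Slitrk1 (5.76 ± 1.66), Slitrk3 (5.71 ± 1.39), Slitrk4 (4.62 ± 1.86) and Slitrk6 (0.0985 ± 0.0495), each a mean with its SD over 3 libraries. In sgRosa it was Slitrk5 (6.41 ± 5.47 CPM per kilobase), Slitrk3 (5.35 ± 4.44), Slitrk1 (4.80 ± 4.80), Slitrk4 (3.33 ± 2.23), Slitrk2 (1.20 ± 0.287) and Slitrk6 (0.104 ± 0.106). Among the 5 tested members, neighbours in either order differed by less than the larger SD of the pair, although Slitrk5 was above Slitrk2 in every sgEgfr library and Slitrk4 above Slitrk2 in every sgRosa library. By mean length-scaled level Slitrk2 stood next to the top in sgEgfr and below the other 4 tested members in sgRosa. Single libraries did not all keep this order. Slitrk2 was above Slitrk1 in sgRosa replicate 1 (1.53 against 1.26 CPM per kilobase) and below it in sgEgfr replicate 1 (5.12 against 5.89).

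Set against the neuronal level of each library, the groups separated for Slitrk2 and overlapped for the other 4 tested members. The measure is a gene's log2 CPM minus the average log2 CPM of the 16 pan-neuronal genes in the same library. For Slitrk4 it was -2.22, -2.47 and -1.99 in the sgEgfr libraries and -2.60, -2.22 and -2.03 in the sgRosa libraries, a difference of 0.06 between group means. With each library left out in turn it ran from -0.10 to 0.19.

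For Slitrk3 the relative level was -2.95, -2.51 and -2.67 in sgEgfr and -3.08, -2.54 and -2.05 in sgRosa, a difference of -0.15 (-0.41 to 0.11 with a library left out). For Slitrk1 it was -2.55, -2.63 and -2.52 in sgEgfr and -3.75, -2.62 and -1.93 in sgRosa, a difference of 0.20 (-0.29 to 0.62). For Slitrk5 it was -1.62, -2.02 and -1.23 in sgEgfr and -2.82, -2.17 and -1.66 in sgRosa, a difference of 0.59 (0.29 to 0.87). The differences of Slitrk1, Slitrk3 and Slitrk4 changed sign when a library was left out and that of Slitrk5 did not. In all 4 genes the relative level was lowest in sgRosa replicate 1 among the 6 libraries, and Slitrk1 spread as widely over the sgRosa libraries as Slitrk2 did.

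For Slitrk2 the relative level was -2.17, -1.69 and -1.31 in the sgEgfr libraries and -2.92, -3.47 and -4.59 in the sgRosa libraries. The groups did not overlap, and their means of -1.72 ± 0.43 in sgEgfr and -3.66 ± 0.85 in sgRosa (SD, n = 3 each) differed by 1.94. With each library left out in turn the difference lay between 1.47 and 2.31. Slitrk2 was 1 of 5 tested members not overlapping with sgEgfr higher on this scale, which 0.699% of all tested genes showed, where the rule again used the same contrast. sgRosa replicate 3, which had the highest neuronal level of its group, had the lowest relative level of Slitrk2 in the 6 libraries.

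**Figure D2:**
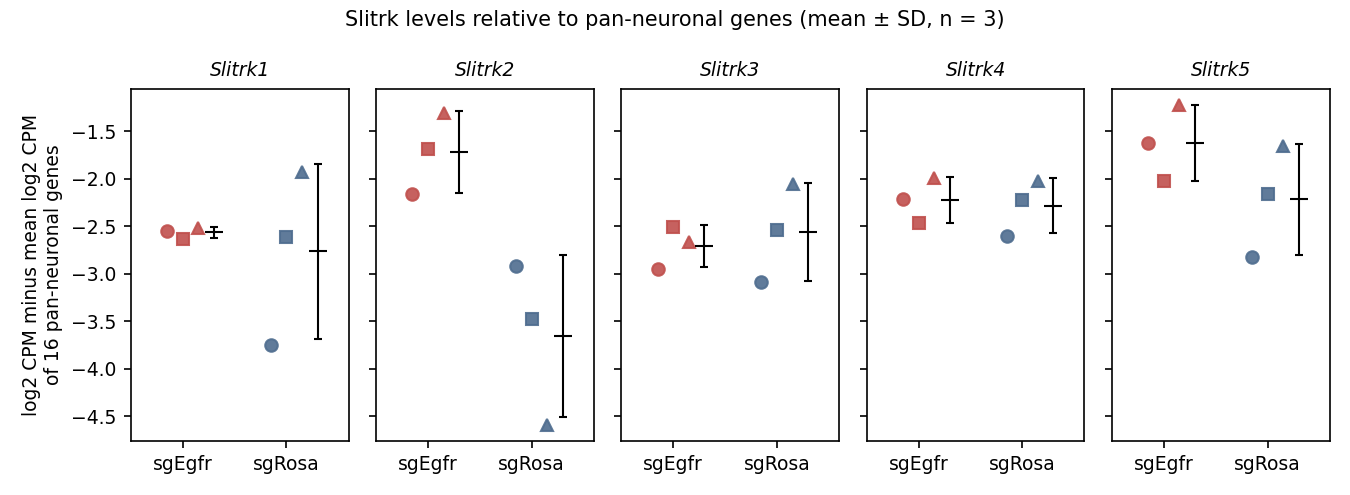
Level of the 5 tested Slitrk genes relative to neurons (y axis, log2 CPM of the gene minus the average log2 CPM of 16 pan-neuronal genes) in sgEgfr and sgRosa libraries. Circles, squares and triangles are replicates 1, 2 and 3, and bars are the mean and SD of 3 libraries. The groups separate for Slitrk2, by 1.94 between means, and overlap for the other 4.

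**Figure D3:**
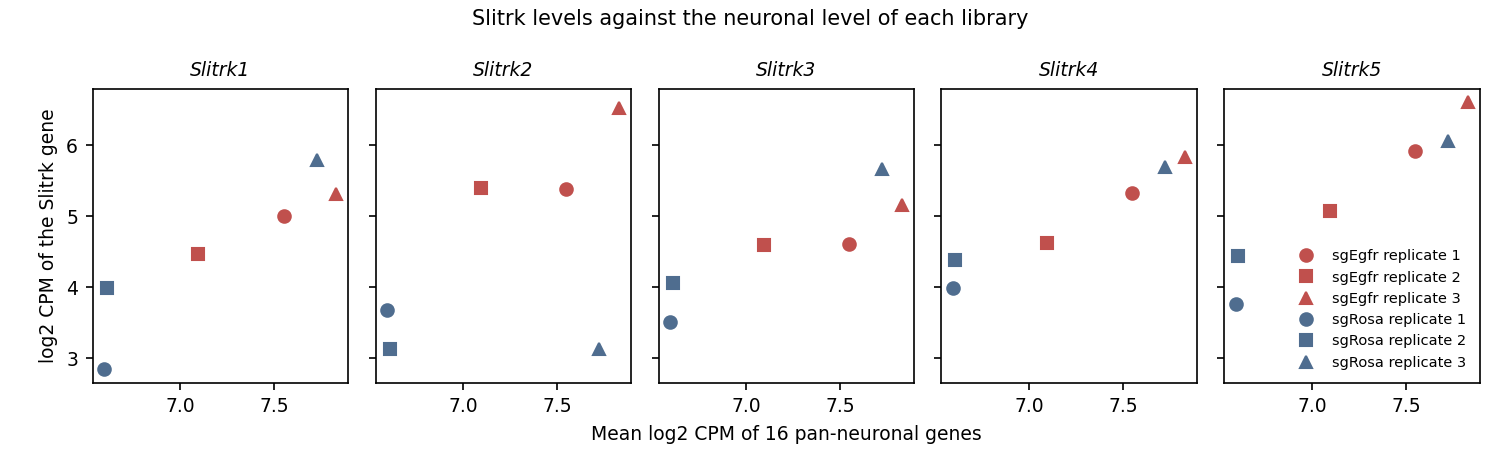
log2 CPM of each tested Slitrk gene (y axis) against the average log2 CPM of 16 pan-neuronal genes (x axis), with 1 point for each library (red sgEgfr, blue sgRosa). Slitrk1, Slitrk3, Slitrk4 and Slitrk5 are higher in the 4 libraries whose neuronal level is above 7 than in the other 2, whereas Slitrk2 in sgRosa replicate 3 is at 3.14 beside 6.52 in sgEgfr replicate 3.

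The same contrast can be read inside each library, where scaling plays no part. Slitrk2 made up 20.9%, 28.9% and 28.6% of all Slitrk counts in sgEgfr replicates 1, 2 and 3, with 95% Wilson intervals of 18.4% to 23.7%, 25.6% to 32.5% and 25.6% to 31.7%. It made up 21.1%, 10.2% and 3.59% in sgRosa replicates 1, 2 and 3, with intervals of 16.1% to 27.1%, 6.67% to 15.2% and 2.94% to 4.38%. The share in sgRosa replicate 1 was within the interval of that in sgEgfr replicate 1, so on this scale the groups overlapped. The intervals cover counting error only, since the reads carry no molecular identifiers.

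The log2 CPM of Slitrk2 minus the mean of the other 4 tested members was 0.17, 0.72 and 0.79 in sgEgfr and 0.15, -1.09 and -2.67 in sgRosa. The difference between group means was 1.76, and it was 1.03 without sgRosa replicate 3 and 2.44 without sgRosa replicate 1. In sgRosa replicate 1 all 5 members lay below every sgEgfr library in CPM, whereas in sgRosa replicate 3 Slitrk2 was low and the other 4 were high.

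The share of Slitrk3 was 12.1%, 16.3% and 11.1% in sgEgfr and 18.7%, 19.8% and 21.7% in sgRosa, and that of Slitrk4 was 20.2%, 16.8% and 17.7% in sgEgfr and 26.3%, 24.9% and 22.1% in sgRosa. For both genes every sgEgfr library lay below every sgRosa library, but shares add to a whole, so they move when that of Slitrk2 does. Slitrk5 took the largest or second largest share in every library, between 22.5% and 30.5%.

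**Figure D4:**
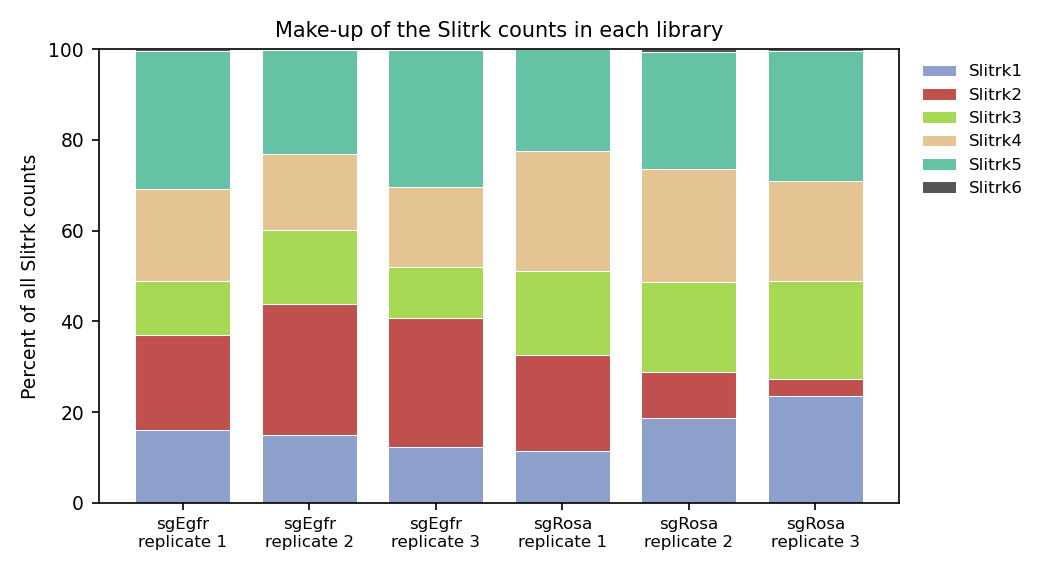
Percent of all Slitrk counts (y axis) taken by each member, stacked from Slitrk1 at the bottom to Slitrk6 at the top, in each sgEgfr and sgRosa library. The Slitrk2 share runs from 20.9% to 28.9% in sgEgfr and from 3.59% to 21.1% in sgRosa.

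Profiles were also compared gene by gene, as the root mean square difference over the 6 libraries between 2 genes' log2 CPM, each centred on its own mean. Slitrk1, Slitrk3, Slitrk4 and Slitrk5 differed from each other by 0.28 (Slitrk3 and Slitrk4) to 0.48 (Slitrk3 and Slitrk5), and from Slitrk2 by 1.09 (Slitrk5) to 1.35 (Slitrk1). The median tested gene differed from Slitrk2 by 1.35 as well, so Slitrk1 was no closer to Slitrk2 than a gene in the middle of the ranking. The other members were closer. Of 13158 genes ranked from the nearest, Slitrk5 had rank 1006, Slitrk4 rank 1968, Slitrk3 rank 5596 and Slitrk1 rank 6544. With predicted genes passed over, the nearest profiles to Slitrk2 were those of Pisd-ps3, listed as a pseudogene (0.51), Adam22, a synaptic receptor for the secreted protein LGI1 (0.62), Gsk3b, a serine/threonine kinase gene (0.71), the secreted metalloprotease gene Adamts9 (0.71) and Klhl10, a kelch-like gene known from mouse male germ cells (0.72). Adam22 was at 467, 361 and 757 CPM in the sgEgfr libraries and at 147, 262 and 103 CPM in the sgRosa libraries, so the groups did not overlap. These genes were picked for likeness to Slitrk2, so their separation of the groups is no further evidence, and reads of Pisd-ps3 may be shared with its parent gene. Exons of Adamts9 overlap those of genes on the other strand, and whether reads were counted by strand was not stated.

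Across all genes, the quasi-likelihood test of edgeR, with p-values adjusted by the Benjamini-Hochberg method, called 0 genes higher (0%) and 0 lower (0%) in sgEgfr at 0.05, with a smallest adjusted p of 0.820, and 759 genes had an unadjusted p under 0.05. DESeq2, which gave an adjusted p to 8045 of the 13159 tested genes, called 33 genes, and limma-voom called 0. Of the 5 tested members edgeR called 0, and DESeq2 called Slitrk2, where it called 0.236% of tested genes higher. Without the filter on low counts edgeR called 1 gene higher of 24021 (0.00416%), and it was Slitrk2. Since the family was chosen on this contrast, nothing is read from these calls.

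Genes of SLITRK partners, in lists drawn up with earlier results of these data known, were tested in the same fit. The 3 LAR-type receptor phosphatase genes did not pass and their groups overlapped. Ptprs, whose product is the usual presynaptic partner at excitatory synapses, was at 221, 182 and 275 CPM in sgEgfr and 80.4, 123 and 290 CPM in sgRosa (log2 fold change 0.45, SE 0.47, edgeR adjusted p = 0.885). Like Slitrk1, Slitrk3, Slitrk4 and Slitrk5 it was high in sgRosa replicate 3 and low in sgRosa replicates 1 and 2. Ptprd, whose product is the partner of SLITRK3, was at 210, 322 and 241 CPM in sgEgfr and 483, 267 and 197 CPM in sgRosa (-0.29, SE 0.38, adjusted p = 0.907). Its order among the sgRosa libraries ran the other way, highest in replicate 1. Ptprf was at 46.3, 37.9 and 47.5 CPM in sgEgfr and 30.7, 45.9 and 58.9 CPM in sgRosa (-0.05, SE 0.28, adjusted p = 0.980).

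Other genes around these receptors were called by neither edgeR nor DESeq2, but DESeq2 gave some of them, such as Lrfn1, Lrfn4 and Robo1, no adjusted p. Of 8 tested genes for other postsynaptic ligands of the phosphatases, 2 were positive and 6 negative (median log2 fold change -0.18, against -0.04 over all tested genes), with the smallest p for Il1rap (-0.73, SE 0.62), an interleukin-1 receptor subunit gene, followed by the SALM family genes Lrfn5 (0.63, SE 0.60), Lrfn1 (0.67, SE 0.68) and Lrfn4 (-0.23, SE 0.40). Of 11 genes for intracellular partners, 8 were positive (median 0.35). The liprin gene Ppfia2 was at 153, 78.5 and 178 CPM in sgEgfr and 37.7, 42.2 and 87.0 CPM in sgRosa (1.28, SE 0.43), and the scaffold gene Cask at 420, 362 and 480 CPM in sgEgfr and 109, 231 and 311 CPM in sgRosa (0.95, SE 0.40). In CPM the groups separated with sgEgfr higher, as in 5.8% of all tested genes, for Cask and for Erc1, an active zone gene (0.51, SE 0.23), and overlapped for Ppfia2 and for Trio, a guanine nucleotide exchange factor gene (0.60, SE 0.36). Relative to the pan-neuronal genes it was the reverse. Ppfia2 (0.79 between group means) and Trio (0.21) then separated the groups with sgEgfr higher, as did 0.699% of all tested genes, and Cask and Erc1 overlapped. Of the 8 tested genes of the SLIT, ROBO and Trk families with Bdnf, 7 were positive (median 0.26), and in all 8 the groups overlapped. The smallest p-values were those of the guidance receptor genes Robo1 (0.45, SE 0.28) and Robo2 (0.73, SE 0.51), of Bdnf (0.49, SE 0.54) and of the neurotrophin receptor gene Ntrk3 (-0.20, SE 0.38). With scaling to the pan-neuronal genes, 2 of the ligand genes, 4 of the intracellular partners and 2 of these 8 were positive.

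Among 21 other tested neuronal leucine-rich repeat genes, 13 were positive and 8 negative (median 0.23). The 2 that separated the groups were lower in sgEgfr, a pattern that 7.6% of all tested genes had. Lrrn3 was at 29.6, 19.2 and 29.2 CPM in sgEgfr and 110, 53.0 and 32.0 CPM in sgRosa (-1.32, SE 0.45, adjusted p = 0.820), and the adhesion gene Amigo2 at 6.61, 6.03 and 5.07 CPM in sgEgfr and 12.7, 11.7 and 8.19 CPM in sgRosa (-0.85, SE 0.32, adjusted p = 0.820). None of the 21 separated the groups with sgEgfr higher, the direction of Slitrk2, and 3 were positive with scaling to the pan-neuronal genes. The synaptic adhesion genes Lrrtm2 (0.30, SE 0.23) and Flrt3 (0.47, SE 0.40) came next by p.

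The synapses themselves were represented by 16 excitatory and 12 inhibitory postsynaptic genes. All 16 excitatory genes were positive (median 0.39), and with scaling to the pan-neuronal genes 8 of 16 were (median 0.02, against -0.57 over all tested genes on that scale). The 16 pan-neuronal genes themselves moved much alike. All 16 were positive with TMM scaling (median 0.40), and 8 were with scaling to their own mean (median -0.02). Shank1, a scaffold gene, was at 249, 179 and 237 CPM in sgEgfr and 26.2, 49.3 and 106 CPM in sgRosa (1.86, SE 0.49, adjusted p = 0.820). Of the inhibitory genes 10 were positive (median 0.19), and with pan-neuronal scaling 4 were (median -0.32). Igsf9b, an adhesion gene of inhibitory synapses, was at 163, 311 and 296 CPM in sgEgfr and 65.8, 105 and 106 CPM in sgRosa (1.48, SE 0.34, adjusted p = 0.820). Shank1 and Igsf9b separated the groups with sgEgfr higher, again against 5.8% of all tested genes. Homer1 (0.48, SE 0.36), Dlgap1 (0.77, SE 0.61) and the GABA-A receptor subunit gene Gabra2 (0.63, SE 0.53) did not. Relative to the pan-neuronal genes Shank1 separated the groups as well (1.56 between means, against 0.699% of all tested genes), whereas Igsf9b overlapped. None of the genes of either list passed in edgeR, whereas DESeq2 called Shank1 (adjusted p = 0.0381) and Igsf9b (adjusted p = 0.0284). Over all tested genes DESeq2 called 0.236% higher in sgEgfr, and both lists were drawn up with earlier results known.

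**Figure D5:**
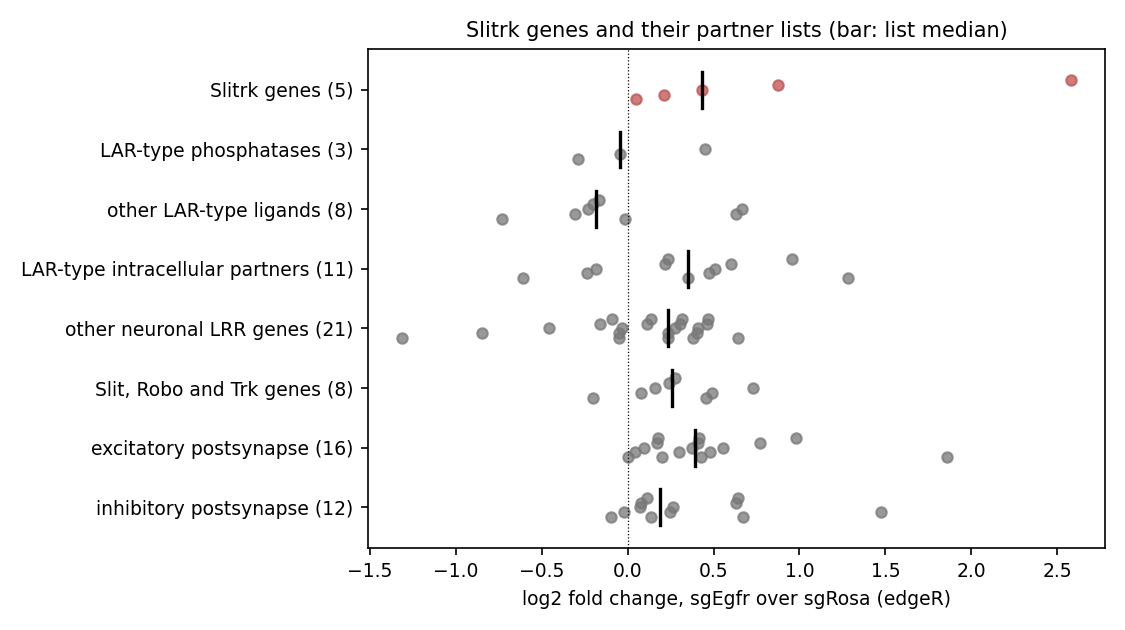
log2 fold change of sgEgfr over sgRosa by edgeR (x axis) for the 5 tested Slitrk genes (top row, red) and for the tested genes of each partner list (grey), with the number of genes in brackets and a bar at each median. Slitrk2 is at 2.58, and the highest value among the listed partner genes is 1.86 (Shank1).

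For each of the 14 lists of cell type and region markers, the mean log2 CPM overlapped between the groups, whereas the summed CPM of 2 lists did not. The striatum markers summed to 153 to 195 CPM in sgEgfr and 225 to 359 CPM in sgRosa, with all 7 tested negative (median -0.73). The markers of cortical or basolateral amygdala projection neurons summed to 511 to 604 CPM in sgEgfr and 268 to 413 CPM in sgRosa, with all 8 positive (median 0.68). All 9 microglia markers had positive log2 fold changes (median 1.36), with a summed level of 37.8 to 523 CPM in sgEgfr and 70.3 to 181 CPM in sgRosa and no marker at 0 in any library. sgEgfr replicate 3, the library with the most Slitrk2, had the lowest microglia mean of all 6 (1.81 log2 CPM). It had the highest means of the pan-neuronal genes (7.83) and of the excitatory neuron markers (6.40). Of 10 astrocyte markers 2 were positive (median -0.15), with a summed level of 404 to 1582 CPM in sgEgfr and 771 to 1507 CPM in sgRosa, and this library also had the lowest astrocyte mean (3.87). All 10 oligodendrocyte markers were negative (median -0.86; 22648 to 57947 CPM summed in sgEgfr and 24623 to 72656 CPM in sgRosa). The 16 pan-neuronal genes summed to less, 3504 to 5649 CPM in sgEgfr and 2344 to 5707 CPM in sgRosa. The libraries were thus not of neuronal RNA alone. All 5 red blood cell markers were positive (median 1.78; 586 to 4047 CPM summed in sgEgfr and 403 to 1070 CPM in sgRosa). Alas2, a heme synthesis gene (2.41, SE 0.64), separated the groups with sgEgfr higher, as did 5.8% of all tested genes. DESeq2 called Alas2 (adjusted p = 0.0394), where it called 0.236% of tested genes higher. Among neuronal lists all 8 excitatory markers were positive (median 0.82) and all 8 tested inhibitory markers negative (median -0.999; Sst, the somatostatin gene, at -2.05, SE 0.47, was called by DESeq2 with adjusted p = 0.0381). In both directions together DESeq2 called 33 genes, over 8045 with an adjusted p. The part of these differences in cell type and region markers in the level of Slitrk2 was not tested.

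The annotated starts of Slitrk2 are shown because the counts do not tell which of them gave the reads. The promoter table of RefSeq on GRCm38.p6 held 6 windows for 5 of the members, 2 of them for Slitrk2. Each window has 250 bases before a RefSeq start and 50 after it. The bases of each Slitrk2 window that precede its first exon base in GENCODE M21 follow, 5′ to 3′ on the plus strand. Capitals mark the letters TGACGTCA, the cAMP response element, which reads the same on both strands.
Slitrk2 at chrX:66649068-66649317: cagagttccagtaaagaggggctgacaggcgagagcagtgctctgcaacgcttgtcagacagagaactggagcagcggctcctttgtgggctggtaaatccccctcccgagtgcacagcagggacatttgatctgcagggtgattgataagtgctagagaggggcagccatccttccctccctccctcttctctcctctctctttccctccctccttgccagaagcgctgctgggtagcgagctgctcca
Slitrk2 at chrX:66652909-66653006: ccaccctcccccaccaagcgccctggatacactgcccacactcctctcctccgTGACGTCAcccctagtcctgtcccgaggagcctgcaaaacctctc
In the second window the element lies 37 bases before the GENCODE M21 exon. Only 98 of the 250 bases before the RefSeq start precede that exon, so the element is farther from that start. The windows of Slitrk1, Slitrk3, Slitrk5 and Slitrk6 and the first window of Slitrk2 do not hold the element. It was searched for after the sequence had been seen, and 588 of the 32851 windows in the table hold it (1.79%). A direct repeat of AGGTCA with any 1 base between, searched on both strands, a form that COUP-TF nuclear receptors can bind, was in none of the 6 windows and in 0.0396% of all windows.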

How the data were processed

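The authors deposited whole-number read counts per gene, with no normalization, for each of the 6 libraries, and again in a joint table, where 6 columns held the same values and 3 further columns matched no sample and were not used. Per the submitters' processing notes, the tools included fastp 0.23.2, STAR 2.7.5c, featureCounts 2.0.1 and edgeR 3.42.4, with build mm10. The annotation, options and strand handling of that step were not given.

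Of 35976 genes, 13159 passed filterByExpr (minimum count 10, minimum total 15). They were scaled by TMM and tested by edgeR's quasi-likelihood method in R 4.3.3 (edgeR 4.0.16), at a Benjamini-Hochberg adjusted p of 0.05. Alternatives changed the scaling, the filter, the tool (DESeq2 1.42.0, limma 3.58.1) or the libraries used. The SE of a log2 fold change was derived from its F statistic. log2 CPM used a prior count of 2. The fit was tested on simulated data. Exon lengths came from GENCODE M21, and coding sequences were aligned by codon with MAFFT 7.526.

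Members and gene lists were chosen with earlier results of these data known. All 6 members and the 3 LAR-type genes were to be named, with up to 4 tested genes of each partner list by smallest p and the 5 genes nearest to Slitrk2 in profile. Some genes that this rule picked are not reported here. Exons of Ppfia2, Erc1, Amigo2, Lrrtm2, Bdnf, Il1rap, Ptprd, Shank1 and Dlgap1 overlap those of genes on the opposite strand, and their reads may not be told apart. No 2 libraries of a group agreed within sampling noise (chi-square per degree of freedom at least 10.4).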

Additional observations from a re-analysis of the deposited data

How the results depend on the processing

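The count of genes called was 0 in 14 of 16 alternatives and 1 without the filter on low counts, over 24021 genes (that gene was Slitrk2). With DESeq2 it was 33, over 8045 genes with an adjusted p (Slitrk2 among them). The log2 fold change of Slitrk2 stayed positive in all 16 alternatives and was 1.91 with scaling to the pan-neuronal genes, which moved the median of all genes from -0.04 to -0.57. Without sgRosa replicate 3 and sgEgfr replicate 1, the libraries with high choroid plexus markers, it was 2.67, while Slitrk1 was at 1.48, Slitrk3 at 1.12, Slitrk4 at 1.18 and Slitrk5 at 1.92.

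With single libraries left out, the values ran from -0.20 to 1.50 for Slitrk1, 2.12 to 2.81 for Slitrk2, -0.29 to 1.02 for Slitrk3, 0.16 to 1.16 for Slitrk4 and 0.50 to 1.89 for Slitrk5, and the count of calls stayed at 0. Same-numbered libraries of the 2 groups did not all deviate together (correlations of -0.03, 0.48 and 0.28). Whether a number marks shared animals or days was not stated, and these correlations cannot decide it. With a replicate block 0 genes were called and the values were 0.65, 2.54, 0.35, 0.57 and 1.09 for Slitrk1 to Slitrk5. The cause of these shifts was not tested. With 20 to 93 Slitrk2 counts in the sgRosa libraries, depth limits its precision there.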

Other observations

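Among 645 other tested protein-coding genes whose coding sequence lies in 1 exon, a comparison added after seeing the data, the median log2 fold change was -0.01 and 49.3% were positive, against a median of -0.05 and 45.2% for 11558 other protein-coding genes. Of the annotated genes within 1 Mb of Slitrk2 on chromosome X, 19 microRNA genes were in the counts, all at 0 in every library.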
